A study of Mus musculus with 6 samples.

Results

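The 9 genes described here encode the enzymes that break down stored triglyceride in adipocytes and the proteins through which beta-adrenergic signals and insulin control them. They are Pnpla2, Pnpla3, Lipe, Mgll, Abhd5, G0s2, Adrb1, Adrb3 and Pde3b, and they were chosen by name from the 17924 genes of the deposited RNA-seq table. All 9 were measured in every library and entered the test, which covered 16252 genes. The study asked whether Nelfb, a subunit of the negative elongation factor that holds RNA polymerase II near gene starts, is needed for adipocyte differentiation. Dermal fibroblasts from the dorsal skin of newborn (P0) mice were kept for 14 days in adipocyte differentiation medium, and 3 biological replicates of CTL and 3 of Nelfb-/- cells were sequenced. CTL cells were Nelfb fl/wt or Nelfb wt/wt and Nelfb-/- cells were Nelfb fl/fl, and both groups carried Pdgfra-Cre on a C57BL/6J background. The allele of each CTL library was not given, and Nelfb was deleted only in cells of the Pdgfra lineage, so that other cells of the dermis could still hold it.

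Lipolysis releases fatty acids from the lipid droplet in sequence. Adipose triglyceride lipase (Pnpla2) removes the first fatty acid, hormone-sensitive lipase (Lipe) acts on the diglyceride, and monoglyceride lipase (Mgll) frees glycerol. Abhd5 (CGI-58) activates Pnpla2 and G0s2 inhibits it. Catecholamines act through beta-adrenergic receptors (Adrb1, Adrb3), which raise cAMP and activate protein kinase A (PKA), and PKA phosphorylates Lipe and perilipin. Insulin opposes this through phosphodiesterase 3B (Pde3b), which degrades cAMP.

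The sequences before the start sites were read for 7 of the 9 genes from RefSeq promoter windows on GRCm38.p6, each of 250 bases before and 50 bases after an annotated start. They are shown for Pnpla3, which fell in Nelfb-/- cells, and for Pnpla2 and its inhibitor G0s2, the members with the highest levels per kb of transcript in CTL cells. Capitals mark the GC box (GGGCGG), the CCAAT box (CCAAT) and the cAMP response element (CRE, TGACGTCA), each searched on both strands together with the TATA box (TATAAA). The bases run from 5′ to 3′ on the strand of the gene and end at the base before the start.
Pnpla3, chr15:84167566-84167815, plus strand: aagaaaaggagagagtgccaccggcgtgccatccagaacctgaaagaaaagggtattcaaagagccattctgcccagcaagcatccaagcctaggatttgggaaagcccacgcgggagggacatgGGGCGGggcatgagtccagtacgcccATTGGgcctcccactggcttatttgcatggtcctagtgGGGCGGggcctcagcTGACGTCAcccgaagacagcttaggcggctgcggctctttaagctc
Pnpla2, chr7:141454938-141455187, plus strand: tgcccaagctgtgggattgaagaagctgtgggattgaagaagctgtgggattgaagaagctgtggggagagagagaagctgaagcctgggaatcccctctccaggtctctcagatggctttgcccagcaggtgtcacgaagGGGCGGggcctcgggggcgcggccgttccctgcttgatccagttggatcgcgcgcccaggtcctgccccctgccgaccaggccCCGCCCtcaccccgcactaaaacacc
G0s2, chr1:193273189-193273438, minus strand: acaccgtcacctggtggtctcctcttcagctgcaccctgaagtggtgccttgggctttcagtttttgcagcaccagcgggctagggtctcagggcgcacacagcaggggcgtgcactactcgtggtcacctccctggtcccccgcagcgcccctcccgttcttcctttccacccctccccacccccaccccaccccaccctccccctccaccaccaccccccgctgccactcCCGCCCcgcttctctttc
Pnpla3 held GC boxes that began 125 and 61 bases before the start, and a CRE 46 bases before it. In Pnpla2 the GC boxes began 109 and 26 bases before the start, and in G0s2 the only one began 18 bases before it. Over the whole 300 bases, a GC box was found in 8 of the 9 windows of these 7 genes, where 35.7% of the 32851 windows in the RefSeq table held one. No window of these genes held a TATA box, against 13.6% of all windows. A CRE was present in 1 window, that of Pnpla3, against 1.79% of all windows, and a CCAAT box in 2, those of Pnpla3 and Adrb1, against 37.4%. The windows of the 7 genes were between 59.7% and 72.3% G or C, with a median of 52.7% over all windows. These matches describe letters in the windows and do not show binding.

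Values are in CPM, the reads that fell on a gene for each 1e+06 reads of its library, and the 3 values of a group are always listed as replicates 1, 2 and 3. The libraries held 17.2 to 29.4 M reads (M, 1e+06), and 3 reads, taken as the floor, were worth 0.102 to 0.175 CPM. Nelfb itself had 17.3, 19.6 and 22.3 CPM in the CTL libraries and 5.50, 3.90 and 5.55 CPM in the Nelfb-/- libraries (log2 fold change -1.99, limma, adjusted p = 0.0050). The summed level of 12 adipocyte markers lay between 27155 and 44444 CPM in CTL and between 19875 and 30593 CPM in Nelfb-/- libraries, so both groups carried adipocyte RNA. Among these markers Adig and Retn fell and Lep rose, and 9 did not pass the test. The summed level of 10 macrophage markers was 216 to 788 CPM in CTL and 2133 to 6676 CPM in Nelfb-/- libraries, and 9 of them rose. Of 12 fibroblast markers 11 were tested and 2 rose, and their sum was 4521 to 17308 CPM in CTL and 9134 to 34368 CPM in Nelfb-/- libraries. Summed markers of melanocytes (56.5 to 81.6 CPM in CTL, 103 to 214 CPM in Nelfb-/-), Schwann cells (75.5 to 109 and 308 to 404 CPM) and skeletal muscle (9.66 to 12.8 and 49.6 to 92.3 CPM) were also higher in all Nelfb-/- libraries, with 6 of 7, 4 of 6 and 5 of 6 tested markers up and 1 Schwann marker down. Tyrp1, Tyr, Mlana, Myod1 and Ckm lay at or under the floor in all CTL libraries. Keratinocyte markers summed to 3.34 to 3.83 CPM in CTL and 8.34 to 19.8 CPM in Nelfb-/- libraries without overlap, and 2 of 5 tested rose. Endothelial markers summed to 7.85 to 12.1 and 9.20 to 23.5 CPM, and 1 of 6 tested rose, while none of 7 pericyte and smooth muscle markers passed (946 to 1343 and 643 to 1669 CPM). CTL replicate 3 and Nelfb-/- replicates 2 and 3 had the highest fibroblast sums, and they stood on one side of the second principal component (27.7% of the variance) with the other 3 libraries opposite. In CTL replicate 1 the summed level of 4 Y-linked genes came to 3.58% of the mean over the remaining libraries. What part these differences in cell makeup had in the results below was not tested, and in bulk RNA fewer cells of a type cannot be told apart from less RNA per cell.

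Of the 9 genes, Pnpla3 and Pde3b fell in Nelfb-/- cells and none rose. Pnpla3 is a lipase-family protein of the lipid droplet, and Pde3b is the insulin-controlled enzyme that removes cAMP. The count of 2 of 9 stands beside 11.2% of all genes tested that passed an adjusted p of 0.05 with a change of at least 2-fold, and beside 3.64% that did so with Nelfb-/- cells lower and 7.58% with Nelfb-/- cells higher. At an adjusted p of 0.05 alone the same 2 members passed, and 15.8% of all genes. The 3 libraries of one group lay wholly outside those of the other at 4 members, with Nelfb-/- cells lower at Pnpla3, G0s2 and Pde3b and higher at Adrb1. Such separation was seen at 38.1% of all genes tested, 16.1% with Nelfb-/- cells lower and 22% with Nelfb-/- cells higher. The median log2 fold change of the 9 members, Nelfb-/- relative to CTL, was -0.45, and that of all genes tested was 0.068. Refits that omitted a single library let between 0 (no CTL replicate 1) and 3 (no CTL replicate 3) members pass, and 1 member passed if CTL replicate 2, Nelfb-/- replicate 2 or Nelfb-/- replicate 3 was omitted.

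**Figure D1:**
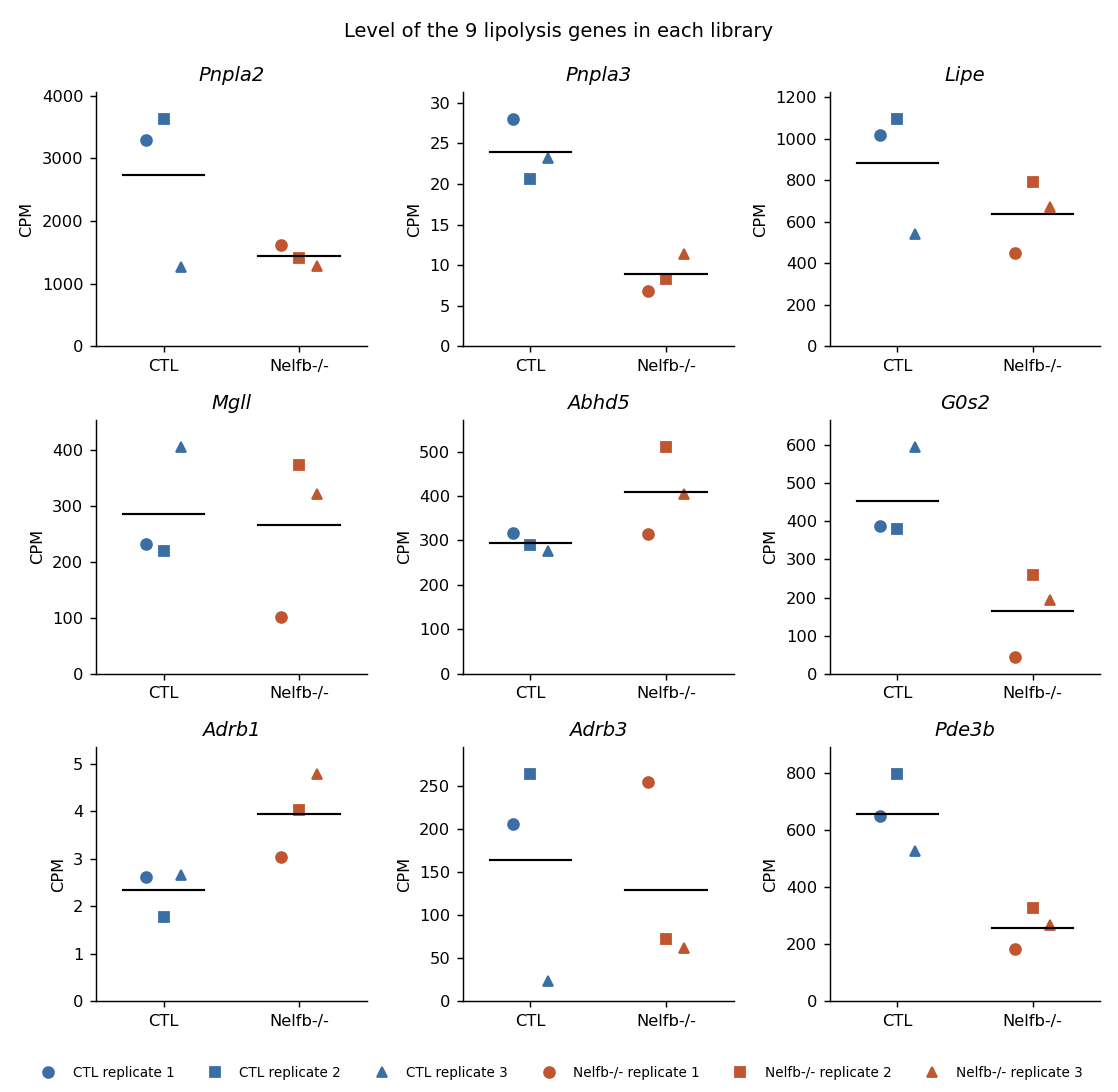
CPM of each of the 9 genes on a linear axis from 0 in the 3 CTL and the 3 Nelfb-/- libraries, with 1 point for each library and a line at the mean of each group. The Nelfb-/- libraries lay below all CTL libraries at Pnpla3, G0s2 and Pde3b and above them at Adrb1, and CTL replicate 3 stood near the Nelfb-/- libraries at Pnpla2 and was the lowest library at Adrb3.

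The lipases were examined first. Pnpla2, which takes the first step of lipolysis, had 3298, 3628 and 1264 CPM in the CTL libraries and 1617, 1411 and 1275 CPM in the Nelfb-/- libraries. CTL replicates 1 and 2 were high, but CTL replicate 3 was the lowest of all 6 libraries, so the groups overlapped. The means were 2730 ± 1280 CPM (SD, n = 3) and 1435 ± 172 CPM (SD, n = 3), and the log2 fold change was -0.79 (SE 0.44, 95% interval -1.86 to 0.27, limma, adjusted p = 0.27). When CTL replicate 3 was left out, Pnpla2 passed with -1.28 (limma, adjusted p = 0.019), whereas omitting CTL replicate 2 gave -0.52 (limma, adjusted p = 0.58). Pnpla2 (ENSMUSG00000025509) lies on chromosome 7 from 141455198 to 141460743 on the plus strand of mm10.

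Lipe, the hormone-sensitive lipase that PKA phosphorylates, had 1018, 1094 and 541 CPM in the CTL libraries and 451, 790 and 669 CPM in the Nelfb-/- libraries. CTL replicates 1 and 2 were again the highest libraries, with CTL replicate 3 inside the range of the Nelfb-/- cells. Its log2 fold change was -0.45 (SE 0.35, 95% interval -1.29 to 0.39, limma, adjusted p = 0.42), and refits that omitted 1 library ranged from -0.77 (no CTL replicate 3) to -0.22 (no Nelfb-/- replicate 1), with -0.26 when CTL replicate 2 was omitted. Mgll, which completes the breakdown of the glyceride, had 233, 219 and 406 CPM in the CTL libraries and 102, 373 and 321 CPM in the Nelfb-/- libraries. The highest library was CTL replicate 3 and the lowest was Nelfb-/- replicate 1, and the groups overlapped. The log2 fold change of Mgll was -0.25 (SE 0.53, 95% interval -1.51 to 1.004, limma, adjusted p = 0.77), and it was above 0 without CTL replicate 3 (0.028) or without Nelfb-/- replicate 1 (0.33). The table places Lipe (ENSMUSG00000003123) on chromosome 7 from 25379527 to 25398710 on the minus strand and Mgll (ENSMUSG00000033174) on chromosome 6 from 88724412 to 88828360 on the plus strand.

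Pnpla3, a droplet protein of the same family as Pnpla2 that is known for its response to feeding, was far less abundant. It had 28.0, 20.6 and 23.2 CPM in the CTL libraries and 6.82, 8.26 and 11.4 CPM in the Nelfb-/- libraries. The groups did not overlap, with the Nelfb-/- cells lower. Its mean fell 2.71-fold, from 23.9 ± 3.78 CPM to 8.83 ± 2.35 CPM (SD, n = 3 each), with a log2 fold change of -1.45 (SE 0.24, 95% interval -2.03 to -0.88, limma, adjusted p = 0.013). The adjusted p (limma) was 0.056 without CTL replicate 1 and 0.0502 without Nelfb-/- replicate 2, and with each of the other libraries left out it stayed below 0.05. Pnpla3 (ENSMUSG00000041653) lies on chromosome 15 from 84167837 to 84187236 on the plus strand.

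The activator and the inhibitor of Pnpla2 were considered next. Abhd5, which binds Pnpla2 and activates it, had 317, 289 and 277 CPM in the CTL libraries and 315, 511 and 404 CPM in the Nelfb-/- libraries. Nelfb-/- replicates 2 and 3 were the highest libraries, but Nelfb-/- replicate 1 lay just under CTL replicate 1. The log2 fold change of Abhd5 was 0.45 (SE 0.21, 95% interval -0.050 to 0.95, limma, adjusted p = 0.19), and it was 0.28 when Nelfb-/- replicate 2 was omitted. The CTL libraries were closer to each other at Abhd5 (294 ± 20.8 CPM, SD, n = 3) than the Nelfb-/- libraries (409.8 ± 98.4 CPM, SD, n = 3). Abhd5 (ENSMUSG00000032540) lies on chromosome 9 from 122351608 to 122381524 on the plus strand.

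G0s2, a small protein that blocks Pnpla2, had 388, 380.1 and 596 CPM in the CTL libraries and 42.8, 259 and 193 CPM in the Nelfb-/- libraries. All Nelfb-/- libraries were below all CTL libraries, and Nelfb-/- replicate 1 was lower than the other Nelfb-/- libraries by a wide margin. The log2 fold change of -1.79 (SE 0.66, 95% interval -3.37 to -0.21) was the lowest of the 9 members, but it did not pass (limma, adjusted p = 0.12). Without Nelfb-/- replicate 1 it was -0.99 (limma, adjusted p = 0.055). G0s2 (ENSMUSG00000009633) lies on chromosome 1 from 193272161 to 193273217 on the minus strand.

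The ratio of one gene to another within a library does not depend on the depth of that library. The ratio of Pnpla2 to G0s2 was 8.49, 9.54 and 2.12 in CTL replicates 1, 2 and 3 and 37.8, 5.45 and 6.59 in Nelfb-/- replicates 1, 2 and 3. The highest ratio was in Nelfb-/- replicate 1, the library with the least G0s2, and the lowest in CTL replicate 3. The log2 ratio was higher by 0.99 in Nelfb-/- cells, which an exact two-sided permutation test did not separate from 0 (p = 0.6, 5 ratios tested). Omitting Nelfb-/- replicate 1 left a difference of 0.11 in this log2 ratio, and omitting CTL replicate 3 left 0.30. The ratio of Pnpla2 to its activator Abhd5 was 10.4, 12.6 and 4.56 in CTL and 5.14, 2.76 and 3.16 in Nelfb-/- replicates 1, 2 and 3. Only CTL replicate 3 came into the range of the Nelfb-/- libraries, and the log2 ratio differed by -1.24 (exact permutation p = 0.2). The log2 ratios of Pnpla2 to Lipe (-0.35), Lipe to Mgll (-0.19) and Adrb3 to Adrb1 (-0.78) also overlapped between the groups. Omitting 1 library moved the difference in Pnpla2 to Lipe between -0.66 (no Nelfb-/- replicate 1) and -0.16 (no Nelfb-/- replicate 2), with -0.21 when Nelfb-/- replicate 3 was omitted. The difference in Lipe to Mgll lay between -0.80 (no CTL replicate 3) and 0.16 (no CTL replicate 2), with 0.060 for CTL replicate 1 and -0.55, -0.020 and -0.0080 for Nelfb-/- replicates 1, 2 and 3 omitted. That in Adrb3 to Adrb1 lay between -1.996 (no CTL replicate 3) and 0.048 (no CTL replicate 2), with -0.41 for CTL replicate 1 and -1.61, -0.49 and -0.25 for Nelfb-/- replicates 1, 2 and 3 omitted. With 3 libraries a group this test cannot give a p below 0.1.

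**Figure D2:**
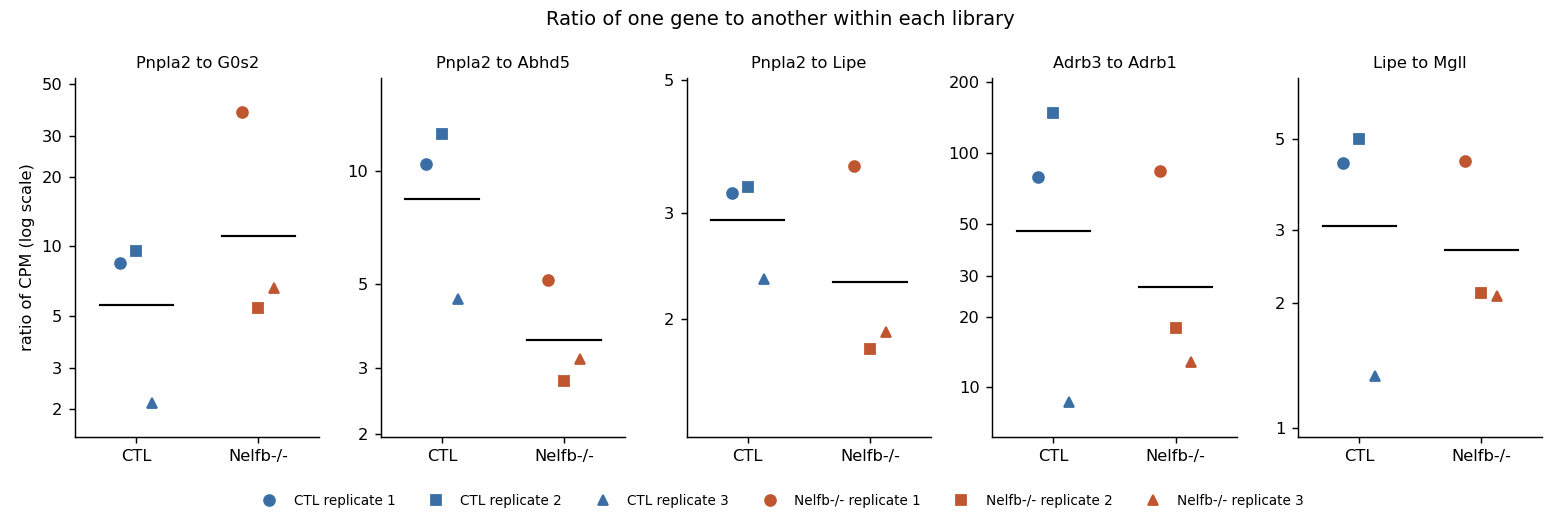
Ratio of the CPM values of 2 genes within each library on a log axis, with 1 point for each library and a line at the geometric mean of each group. The groups overlapped in all 5 ratios, and CTL replicate 3 was the lowest CTL library in each.

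The receptors differed in level and in spread. Adrb3, the beta-adrenergic receptor typical of rodent adipocytes, had 206, 263 and 22.9 CPM in the CTL libraries and 255, 71.9 and 61.2 CPM in the Nelfb-/- libraries. CTL replicates 1 and 2 and Nelfb-/- replicate 1 were high and the other 3 libraries were low, so each group held both high and low libraries. Within CTL the highest library was 11.5-fold above the lowest. The log2 fold change was -0.049 (SE 1.01, 95% interval -2.48 to 2.38, limma, adjusted p = 0.98). This interval is wide on both sides of 0. The log2 fold change of Adrb3 was 0.42 without CTL replicate 1, 0.60 without CTL replicate 2, 0.22 without Nelfb-/- replicate 2, 0.33 without Nelfb-/- replicate 3 and -1.16 without CTL replicate 3. Adrb3 (ENSMUSG00000031489) lies on chromosome 8 from 27225776 to 27250616 on the minus strand and shares 839 exon bases with the antisense gene Gm45470. Gm45470 had 16.5, 31.7 and 1.84 CPM in the CTL libraries and 62.5, 8.11 and 9.94 CPM in the Nelfb-/- libraries. Whether reads were counted by strand is not given in the sources used here, so reads of these overlapping genes may not have been told apart. Antisense genes also share exon bases with Abhd5 (950), Lipe (918) and Mgll (167). Their means in CTL and Nelfb-/- libraries were low, at 0.252 and 0.169 CPM for Abhd5, 1.15 and 0.908 CPM for Lipe, and 0.631 and 1.10 CPM for Mgll.

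Adrb1, the receptor more common in the heart, had 2.62, 1.77 and 2.65 CPM in the CTL libraries and 3.03, 4.02 and 4.77 CPM in the Nelfb-/- libraries. All Nelfb-/- libraries lay above all CTL libraries. The log2 fold change was 0.74 (SE 0.30, 95% interval 0.028 to 1.44, limma, adjusted p = 0.14), and the mean was 2.35 ± 0.497 CPM for CTL against 3.94 ± 0.872 CPM for Nelfb-/- libraries (SD, n = 3 each). Adrb1 (ENSMUSG00000035283) lies on chromosome 19 from 56722199 to 56733113 on the plus strand.

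Pde3b, through which insulin lowers cAMP in adipocytes, had 647, 794 and 525 CPM in the CTL libraries and 182, 325 and 266 CPM in the Nelfb-/- libraries. The groups did not overlap, and the lowest CTL library was above the highest Nelfb-/- library. Its mean fell 2.54-fold, from 655 ± 135 CPM to 258 ± 72.0 CPM (SD, n = 3 each), with a log2 fold change of -1.37 (SE 0.27, 95% interval -2.01 to -0.72, limma, adjusted p = 0.021). Omitting CTL replicate 1 gave an adjusted p (limma) of 0.078, omitting CTL replicate 2 one of 0.082, and omitting Nelfb-/- replicate 3 one of 0.085, so the call of Pde3b was lost in these 3 refits. Pde3b (ENSMUSG00000030671) lies on chromosome 7 from 114415281 to 114539251 on the plus strand.

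**Figure D3:**
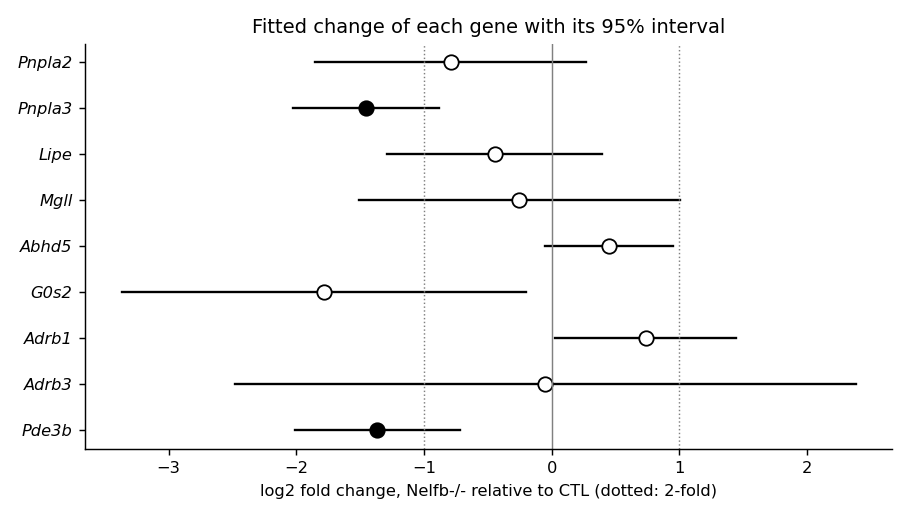
Log2 fold change of each of the 9 genes, Nelfb-/- relative to CTL, as a point with its 95% interval from limma, and with filled points for genes that passed an adjusted p of 0.05 and 2-fold. The intervals of Pnpla3 and Pde3b lay well below 0, and those of Adrb3, Mgll, Lipe, Pnpla2 and Abhd5 held 0.

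To compare levels between genes, CPM was divided by the merged exon length of each gene in kb. In CTL cells the order of the means was Pnpla2 (904 CPM per kb), G0s2 (522), Lipe (150.3), Pde3b (71.9), Mgll (56.4), Abhd5 (49.4), Adrb3 (48.6), Pnpla3 (15.4) and Adrb1 (0.694). Among neighbours in this order, the CTL libraries were apart between G0s2 and Lipe, between Lipe and Pde3b, and between Pnpla3 and Adrb1. The other neighbours overlapped, so Pnpla2 and G0s2 were not ordered beyond their spread, and neither were Pde3b, Mgll, Abhd5 and Adrb3 from one to the next. In Nelfb-/- cells the means were 475 CPM per kb for Pnpla2, 189.6 for G0s2, 108 for Lipe, 68.8 for Abhd5, 52.3 for Mgll, 38.3 for Adrb3, 28.3 for Pde3b, 5.70 for Pnpla3 and 1.17 for Adrb1. Over the longest transcript instead of all exons, Abhd5 (93.3 CPM per kb) came before Mgll (71.7 CPM per kb) in CTL cells.

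**Figure D4:**
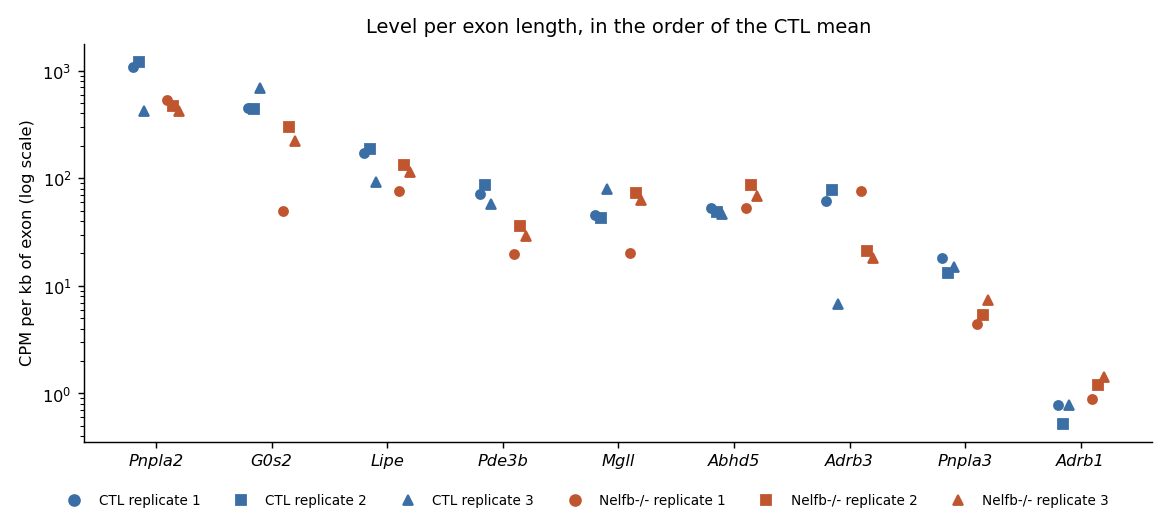
CPM per kb of merged exons of the 9 genes on a log axis in order of their CTL mean, with 1 point for each of the 6 libraries. Pnpla2 and G0s2 were highest in CTL cells and Adrb1 was lowest in all 6 libraries.

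Each member was also set against adipocyte markers within its library. The mean log2 level of Plin1, Adipoq, Fabp4, Cidec and Lpl, none of which passed the test, differed by -0.72 between Nelfb-/- and CTL cells with the groups overlapping. The mean of all 12 adipocyte markers differed by -0.22. Relative to the mean of the 5 markers, Pnpla2 differed by -0.07 on the log2 scale and overlapped between the groups. Pnpla3 was lower relative to the markers by 0.73 and Pde3b by 0.65, and at both genes the groups did not overlap. Lipe (0.27), Abhd5 (1.17) and Adrb1 (1.46) were higher relative to the markers with the groups apart, and G0s2 (-1.07), Mgll (0.47) and Adrb3 (0.67) overlapped. Each of the 5 genes with the groups apart had an exact two-sided permutation p of 0.1, which is the smallest that 3 against 3 libraries allow. The reference itself differed by -0.72, which moves the difference of every gene upward. The share of all genes with the groups apart on this scale is not given here, and the 38.1% above holds for CPM, so this count has no background. All 9 values were lower with the 12 markers as the reference, at -0.57 for Pnpla2, -1.23 for Pnpla3, -0.23 for Lipe, -0.035 for Mgll, 0.67 for Abhd5, -1.57 for G0s2, 0.96 for Adrb1, 0.17 for Adrb3 and -1.15 for Pde3b. The directions of Lipe and Mgll and the size of the other differences thus differed between the references of 5 and of 12 markers. Only the reference of 12 holds Lep, which had the largest change of these markers, with a log2 fold change of 5.26. Lep was low in CTL replicates 1, 2 and 3 (0.180, 0.373 and 2.04 CPM). The log2 fold changes of the other markers lay between -2.12 (Retn) and 0.80 (Car3). The reference of 12 markers was not tested with Lep left out. When a single library was omitted, with the 5 markers as the reference, Adrb3 was between -0.22 (no Nelfb-/- replicate 1) and 1.2 (no CTL replicate 2), and it was -0.18 if CTL replicate 3 was omitted. Pnpla3 was -0.48 if CTL replicate 3 was omitted. Pnpla2 was between -0.41 and 0.12, Mgll between 0.18 and 1.01, and G0s2 between -1.38 and -0.51 in these recalculations.

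The genes whose log2 levels followed a member most closely over the 6 libraries are given as a description, since the libraries share group and cell makeup. For Pnpla2 they were Acaa1b (Pearson r 0.997), Ubxn2a (0.996) and Gm13068 (0.996). For Adrb3 they were C130012C08Rik (0.996), Cyth1 (0.995) and Hnrnpu (0.995). For G0s2 they were Naalad2 (0.997), Hadhb (0.995) and Mrps24 (0.995). None of these 9 genes passed the test between CTL and Nelfb-/- cells. Hadhb, a subunit of the mitochondrial enzyme of fatty acid oxidation, had 94.9, 93.4 and 117 CPM in the CTL libraries and 42.8, 77.4 and 71.8 CPM in the Nelfb-/- libraries (limma, adjusted p = 0.11). Acaa1b, a peroxisomal thiolase, had 125, 149.9 and 12.6 CPM in the CTL libraries and 25.1, 19.9 and 12.2 CPM in the Nelfb-/- libraries (limma, adjusted p = 0.24). Acaa1b has a close copy, Acaa1a, with which reads may be shared. As at Pnpla2, CTL replicates 1 and 2 were high and CTL replicate 3 was near the Nelfb-/- cells.

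The wider pathway was examined with 8 lists of 100 genes in all, of which 89 were tested. Of these, 17 passed, 7 higher and 10 lower in Nelfb-/- cells, which is 19.1% beside 11.2% of all genes tested. By direction, 7.58% of all genes tested passed with Nelfb-/- cells higher and 3.64% with Nelfb-/- cells lower. Of the 17, 13 lost the call when at least 1 library was left out, and 4 (Adra2a, Plin5, Cidea and Fabp5) passed in each case. Omitting CTL replicate 1, 2 or 3 cost 9, 9 and 3 calls, and omitting Nelfb-/- replicate 1, 2 or 3 cost 2, 7 and 12. Adcy3 and Daglb also lost their calls under both other scalings of the libraries, where their log2 fold changes were 0.93 to 0.94 and 0.994 to 0.998, and Gnai1 under upper-quartile scaling (limma, adjusted p = 0.051). The list medians of the log2 fold change were -0.095 for cAMP and PKA, 0.42 for phosphodiesterases, -0.29 for insulin signalling, 0.38 for receptors and proteins of the inhibitory G protein, -0.27 for natriuretic peptides, -0.74 for droplet partners, -0.075 for other lipases and -0.60 for export and reuse, beside 0.068 for all genes.

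Among 18 genes of cAMP and PKA signalling, Adcy7 (log2 fold change 2.24, limma, adjusted p = 0.014) and Adcy3 (1.003, adjusted p = 0.035) rose and none fell. Both encode adenylyl cyclases, which make cAMP. Prkar2b, the PKA regulatory subunit abundant in adipocytes, had 585, 539 and 472 CPM in the CTL libraries and 324, 451 and 394 CPM in the Nelfb-/- libraries without overlap, but it did not pass (log2 fold change -0.46, limma, adjusted p = 0.15). Of 8 cAMP phosphodiesterases other than Pde3b, Pde4d fell (-1.45, limma, adjusted p = 0.047) and Pde7b rose (1.31, limma, adjusted p = 0.021). Pde4d had 30.4, 35.7 and 79.9 CPM in the CTL libraries and 19.5, 13.7 and 16.0 CPM in the Nelfb-/- libraries. Of 10 genes that link the insulin receptor to Pde3b, only Irs1, the adaptor of the receptor, passed, and it fell (-1.03, limma, adjusted p = 0.038).

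Receptors that lower cAMP through the inhibitory G protein changed in both directions. Adra2a, the alpha2A-adrenergic receptor that opposes the beta receptors, had 1.94, 1.87 and 2.82 CPM in the CTL libraries and 20.2, 37.9 and 33.6 CPM in the Nelfb-/- libraries. All Nelfb-/- libraries were far above all CTL libraries, and the mean rose 13.8-fold (log2 fold change 3.74, SE 0.30, limma, adjusted p = 0.0033). Hcar1, the lactate receptor of adipocytes, had 10.01, 8.03 and 6.70 CPM in the CTL libraries and 0.190, 2.39 and 0.979 CPM in the Nelfb-/- libraries, and it fell (-3.29, limma, adjusted p = 0.040). Gnai1, an inhibitory G protein subunit, rose (1.10, limma, adjusted p = 0.035). The other 8 of the 11 tested genes of this list did not pass. In the list of natriuretic peptide signalling, which stimulates lipolysis through cGMP, 1 of 6 tested genes passed. This was Npr1, the receptor of the atrial peptide, with 31.5, 33.3 and 8.70 CPM in the CTL libraries and 2.23, 1.28 and 1.31 CPM in the Nelfb-/- libraries (log2 fold change -3.71, limma, adjusted p = 0.010).

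Of 8 tested genes in the list of droplet partners of the lipases, 2 passed, both lower in Nelfb-/- cells. Plin5, a perilipin that binds Pnpla2 and Abhd5, had 73.6, 57.6 and 60.6 CPM in the CTL libraries and 1.33, 3.43 and 2.65 CPM in the Nelfb-/- libraries. The mean fell 25.9-fold with no overlap (log2 fold change -4.76, SE 0.35, limma, adjusted p = 0.0033). Cidea, a droplet fusion protein, had 10.96, 7.23 and 10.03 CPM in the CTL libraries, while each Nelfb-/- library held at most 3 reads of it. Plin1, the perilipin that sequesters Abhd5 until PKA acts, had 1154, 1196 and 782 CPM in the CTL libraries and 286, 709.7 and 634 CPM in the Nelfb-/- libraries. The groups did not overlap at Plin1, but it did not pass (log2 fold change -1.02, limma, adjusted p = 0.12, and -0.61 when Nelfb-/- replicate 1 was omitted). Hilpda, another inhibitor of Pnpla2, did not pass (-0.92, limma, adjusted p = 0.37) and was highest in CTL replicate 3 at 53.7 CPM, without which its log2 fold change was -0.28.

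Of 15 other intracellular lipases tested, Aadac (3.42, limma, adjusted p = 0.038) and Daglb (1.06, limma, adjusted p = 0.010) rose and Ces1f fell (-3.70, limma, adjusted p = 0.014). Aadac had 0.225, 0.187 and 0.884 CPM in the CTL libraries and 1.61, 10.7 and 3.96 CPM in the Nelfb-/- libraries. CTL replicates 1 and 2 thus lay near the floor at Aadac. Ces1f, and Fabp5 among the genes that follow, have close copies or pseudogenes in the genome that may share their reads. Of 13 genes for the export and reuse of fatty acids and glycerol, 3 fell and none rose. Aqp7, the channel through which glycerol leaves the adipocyte, fell (-1.56, limma, adjusted p = 0.018). Fabp5, a fatty acid binding protein, had 837, 701 and 680.4 CPM in the CTL libraries and 261, 240.1 and 214 CPM in the Nelfb-/- libraries and fell (-1.63, limma, adjusted p = 0.0042). Pck1, which supplies glycerol 3-phosphate for re-esterification, had 678, 616 and 55.9 CPM in the CTL libraries and 2.94, 4.37 and 2.53 CPM in the Nelfb-/- libraries. CTL replicate 3 was 12.1-fold below the highest CTL library but far above every Nelfb-/- library, and Pck1 fell (-6.47, SE 0.94, limma, adjusted p = 0.0096).

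**Figure D5:**
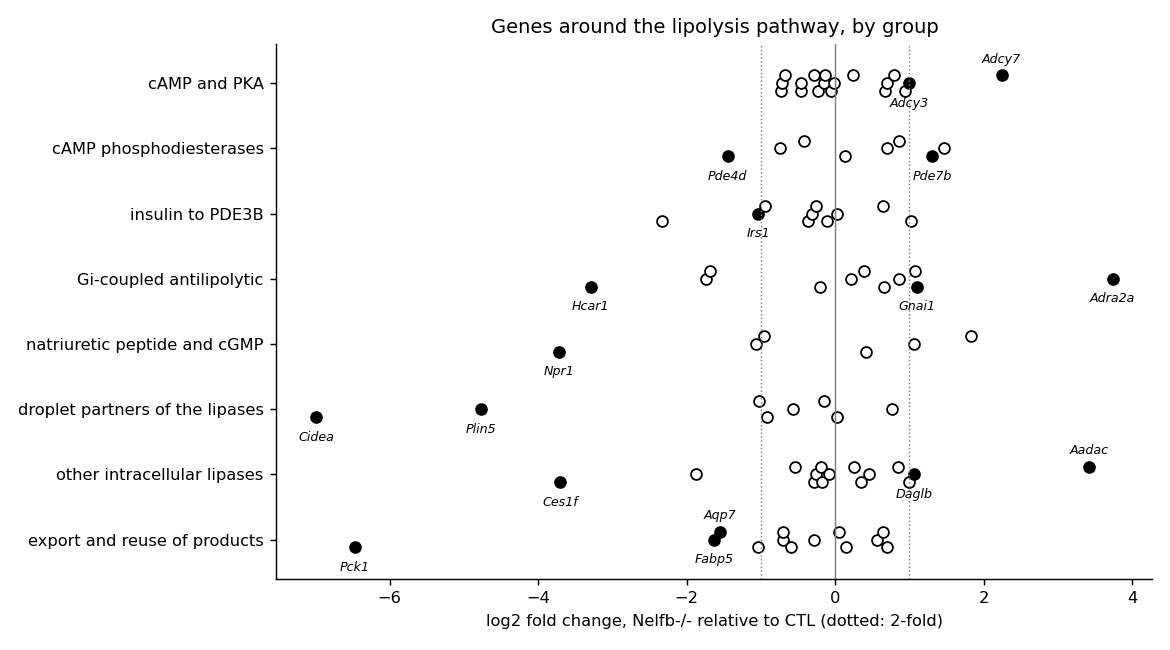
Log2 fold change of the 89 tested genes of the 8 lists, Nelfb-/- relative to CTL, with 1 row for each list, filled points for the 17 genes that passed an adjusted p of 0.05 and 2-fold, and dotted lines at 2-fold. Plin5, Pck1, Npr1 and Ces1f were far to the left and Adra2a and Aadac to the right, and the point of Cidea depends on the pseudocount since its Nelfb-/- libraries were at or under the floor.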

How the data were processed

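RNA-seq values of 3 CTL and 3 Nelfb-/- libraries were taken from 1 table. The authors deposited CPM with an offset of 0.0001 CPM added to each value. The study names the mm10 build and the removal of genes under 10 reads, and the submitters' processing notes name STAR (2.7) and Partek (9.0.20.0202). How reads were counted is not given in the sources used here.

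The offset was subtracted, and the depth of each library (17.2 to 29.4 M reads) was read from the step of its lowest values. Between 69.4% and 72.1% of values up to 20 reads were whole to within 0.02 reads, so no count test was run. Values were multiplied by the geometric mean depth (22.3 M), and log2(reads + 1) of each gene that averaged 10 reads (0.448 CPM) or more was fitted by limma (version 3.58.1, run in R version 4.3.3) with an abundance trend. This scale understates changes of low genes. P was adjusted by Benjamini and Hochberg over 16252 genes, and a gene passed at an adjusted p of 0.05 and 2-fold. The code was tested on simulated data. Ensembl identifiers and exon lengths come from GENCODE vM21, and promoters from RefSeq (GRCm38.p6). Ratios were compared by exact permutation.

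The 9 genes and all lists were chosen with earlier results of these data known. Named besides them were Nelfb, up to 4 genes of each list with the largest change among those that passed, 8 pathway genes whatever their values (Prkar2b, Plin1, Plin5, Hilpda, Npr1, Hcar1, Pck1, Aqp7), the 3 genes most correlated with Pnpla2, Adrb3 and G0s2, and markers of cell types. A further gene of this rule is not reported here. Gm45470 and the other antisense genes were added after their values were seen. Alternatives were other pseudocounts, scalings, filters, array weights, no trend, a replicate block and leaving out each library.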

Additional observations from a re-analysis of the deposited data

How the results depend on the processing

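Pnpla3 and Pde3b kept their direction under all 15 alternatives and passed under 13 and 12 of them, and the calls were lost only when a library was left out. Array weights, whose estimation stopped before it converged and gave Nelfb-/- replicate 3 a weight of 38.8 and CTL replicate 3 a weight of 0.132, changed the largest number of member calls. With them Pnpla2 (-1.35), G0s2 (-1.02), Adrb1 (1.003) and Adrb3 (-1.72) passed, Mgll turned to 0.46, and the numbers of genes that passed were 6 members, 4513 over the whole table, 4 of the insulin list, 8 of the Gi list and 4 of the natriuretic list. In the cAMP and PKA list 1 gene passed with a pseudocount of 5 reads, with median-of-ratios or upper-quartile scaling and without a trend. Daglb fell short of 2-fold with both scalings and with array weights (0.82), and Gnai1 missed the adjusted p with upper-quartile scaling. Without a trend Adcy3, Hcar1, Pde4d, Irs1 and Gnai1 lost their calls, so that 1 phosphodiesterase, 0 insulin genes and 1 gene of the Gi list passed. In the natriuretic list 2 genes passed with either scaling. The scalings moved the median of all genes by -0.065 and -0.069.

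Same-numbered libraries did not deviate together in every case (correlations 0.52, -0.39 and 0.52), and Nelfb-/- replicate 2 correlated best with CTL replicate 3 (0.54). Deviations from a group mean are tied to each other, so these correlations cannot show whether same-numbered libraries were paired. The main fit did not pair them. With a replicate block 2175 genes passed, G0s2 had an adjusted p (limma) of 0.053, 2 natriuretic genes passed, and the number of members that passed was again 2.

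Leaving out each library in turn, the log2 fold change lay between -1.28 and -0.52 for Pnpla2, -1.66 and -1.29 for Pnpla3, -0.60 and 0.33 for Mgll, -1.16 and 0.60 for Adrb3, and -1.55 and -1.13 for Pde3b. Mgll was 0.028 without CTL replicate 3, and Adrb3 was 0.42 without CTL replicate 1, 0.22 without Nelfb-/- replicate 2 and 0.33 without Nelfb-/- replicate 3. Between 0 and 3 members and between 426 and 2479 genes passed, the last without Nelfb-/- replicate 3 and without CTL replicate 3. The number that passed was 0 to 3 for cAMP and PKA, 0 to 3 for phosphodiesterases, 0 to 4 for insulin, 1 to 3 for Gi, 0 to 3 for natriuretic peptides, 1 to 3 for other lipases and 1 to 4 for export. Without one library, the log2 ratio of Pnpla2 to G0s2 differed by 0.11 to 1.51 and Adrb3 relative to the markers by -0.22 to 1.2. A group left with 2 libraries shares its spread with the other.

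Relative to all 12 adipocyte markers the differences were -0.57 for Pnpla2, -1.23 for Pnpla3, -0.23 for Lipe, 0.67 for Abhd5, -1.15 for Pde3b and -0.035 for Mgll. Over the longest transcript the CTL level per kb was 18.2 for Pnpla3, 238 for Lipe, 93.3 for Abhd5 and 99.7 for Pde3b. The levels of the members were the same in these recalculations, so the shifts come from the reference or the length used. Lep, with a log2 fold change of 5.26, is part of the reference of 12 markers and not of that of 5. The 95% interval of Adrb3 (-2.48 to 2.38) sets what these libraries can show of it.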
